A study of Mus musculus with 14 samples.

Results

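NF-kB is a transcription factor built from pairs of 5 related subunits, and the kinases that switch it on form the IKK family. The mRNA of 10 genes was followed here in mouse liver: the subunits Nfkb1, Nfkb2, Rela, Relb and Rel, the IKK complex genes Chuk (IKK-alpha), Ikbkb (IKK-beta) and Ikbkg (NEMO), and the related kinases Tbk1 and Ikbke (IKK-epsilon). They were chosen by name as the subunits and kinases of the pathway, and all 10 were found among the 17656 genes of each library.

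In resting cells, NF-kB dimers are held in the cytoplasm by IkB proteins. In the canonical pathway, cytokine and Toll-like receptors activate IKK-beta within the complex held together by NEMO, which marks IkB for degradation and frees dimers such as RelA with p50, the product of Nfkb1. In the non-canonical pathway, IKK-alpha drives the processing of the Nfkb2 product to p52, the partner of RelB. TBK1 and IKK-epsilon are best known for activating IRF3 and IRF7 in interferon induction. In liver, hepatocytes and macrophages both use the pathway, which raises acute-phase and chemokine genes and protects hepatocytes from death by TNF.

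Concanavalin A (ConA), a plant lectin that activates T cells and causes hepatitis in mice, was given at 8 mg/kg into the tail vein, saline served as the control, and livers were taken 8 h later. Mice were 8 weeks old, on a C57BL/6 background, and either wild-type (WT) or Ythdf1-/- (KO), a constitutive whole-body knockout of the m6A reader YTHDF1. Saline was given to 3 WT and 3 KO mice and ConA to 4 mice of each genotype, with 1 RNA-seq library per mouse. Values are TPM, the abundance of a gene among all transcripts with gene length taken into account, so levels of different genes can be compared, while read depth is not known and counting error cannot be given.

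All 5 hepatocyte markers were high, with summed levels of 50143 to 131226 TPM. Ythdf1 mRNA stood at 12.0 to 25.6 TPM in WT livers and at 15.5 to 26.2 TPM in KO livers. Under saline it was higher in KO, with 18.4 to 20.8 TPM against 12.0 to 13.9 TPM in WT. The whole-gene value was thus not lower in KO and cannot test how the genotypes were labelled. The WT saline livers numbered 2 and 3 were almost alike, with an SD of their log2 differences of 0.134 over 7224 genes, against 0.215 to 0.605 in the 17 other replicate pairs, so comparisons that use WT saline are repeated with the pair averaged and counted as 1 mouse. Replicate 3 of each ConA group stood apart from the other ConA livers, as described below for the 10 genes. The tests used limma on the log2(TPM + 1) scale across all tested genes, and a gene was called at an adjusted p (Benjamini-Hochberg) under 0.05. On this scale the change of genes near 1 TPM is understated.

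Under saline, Chuk was the most abundant of the 10 mRNAs and Rela the most abundant subunit. Chuk had 56.6, 53.4 and 57.0 TPM in the 3 WT saline livers and 43.7, 48.2 and 41.3 TPM in the 3 KO saline livers. Rela had 22.5, 22.9 and 23.2 TPM in WT and 24.1, 21.3 and 24.0 TPM in KO saline livers. The order in WT saline ran from Chuk through Rela, Ikbkb, Ikbkg, Tbk1, Nfkb1, Ikbke and Nfkb2 to Rel and Relb. Of the neighbours in this order, Ikbkg and Tbk1, Ikbke and Nfkb2, and Rel and Relb overlapped in range. Relb and Rel, with 0.59 to 1.09 TPM in any saline liver, were close to the lowest level that was tested.

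After ConA the order changed, and Rela, Ikbke and Nfkb2 led in both genotypes. Ikbke went from the seventh place in WT saline and the sixth in KO saline to the second, and Chuk from the first place to the fourth. Rela and Ikbke did not overlap in range in either ConA group, nor did Ikbke and Nfkb2. From Nfkb2 down to Ikbkb every pair of neighbours overlapped in the WT ConA livers, and Rel was last, below all others, in both ConA groups.

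**Figure D1:**
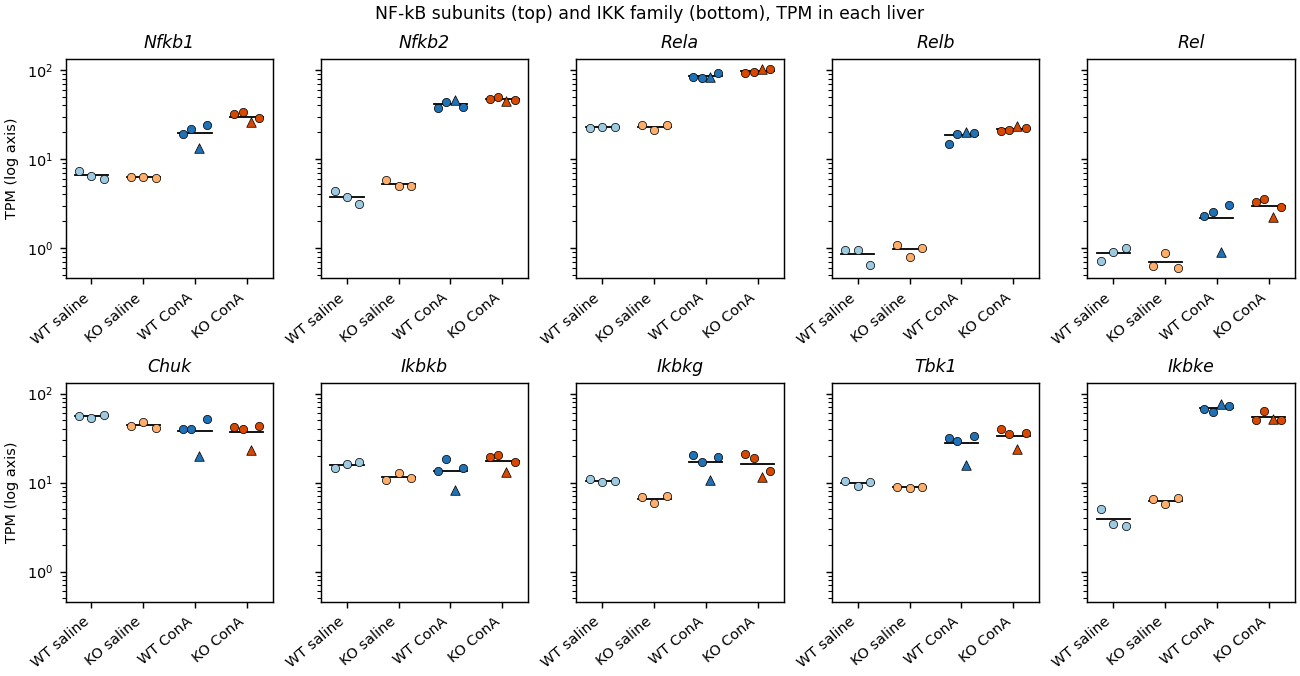
TPM on a log axis for the 5 subunits (top) and the 5 IKK family genes (bottom) in each liver, with 1 point per mouse, the group mean as a line and replicate 3 of each ConA group as a triangle. Nfkb2, Rela, Relb and Ikbke lie far above their saline values in all 8 ConA livers, and the triangles lie lowest of their group for Chuk, Ikbkb, Ikbkg, Tbk1, Rel and Nfkb1.

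Promoter sequences are shown for 3 members called higher after ConA, Rel with a match to the kB consensus, the 10-base motif bound by NF-kB dimers, and Rela and Ikbke without one. RefSeq promoters of the mouse build GRCm38.p6 were found for 7 of the 10 genes, with 12 transcription starts. Within the 250 bases before the start, searched on both strands, the consensus was found at 4 of the 12 starts, all of Nfkb2 (3 starts) or Rel (1 start), and in 7.25% of the windows of all 32851 starts. The matches of Nfkb2 read GGGAATTCCCC and GGGGCTTTCC at the start whose window is chr19:46304487-46304736, ending 29 and 2 bases before it. The 11 letters of the former hold overlapping matches on both strands. The other Nfkb2 starts had GGAATGTCCC and GGGACTTTCC, which were 236 and 225 bases before them. A match is a description of the letters and not evidence of binding. The windows below stop where an annotated exon begins, are written from 5′ to 3′ on the strand of the gene, and carry matches in capitals.
Rel, minus strand, chr11:23770971-23771219: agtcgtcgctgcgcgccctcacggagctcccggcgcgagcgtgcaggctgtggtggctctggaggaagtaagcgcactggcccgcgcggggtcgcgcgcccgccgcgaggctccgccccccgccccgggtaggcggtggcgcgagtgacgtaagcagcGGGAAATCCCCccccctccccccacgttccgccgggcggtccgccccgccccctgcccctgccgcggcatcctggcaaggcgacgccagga
Rela, plus strand, chr19:5637291-5637482: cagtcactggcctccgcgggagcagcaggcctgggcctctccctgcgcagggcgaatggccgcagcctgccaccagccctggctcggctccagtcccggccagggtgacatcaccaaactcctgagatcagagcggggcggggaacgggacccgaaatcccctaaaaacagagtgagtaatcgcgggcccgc
Ikbke, minus strand, chr1:131279607-131279813: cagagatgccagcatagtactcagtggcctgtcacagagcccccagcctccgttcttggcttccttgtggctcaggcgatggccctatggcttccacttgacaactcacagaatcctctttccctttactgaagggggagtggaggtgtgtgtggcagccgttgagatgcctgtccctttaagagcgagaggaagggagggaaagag
Rel had 1 run of 11 capitals, GGGAAATCCCC, which began 92 bases before its start. Rela and Ikbke, both raised after ConA, held 0 matches in their 250 bases, of which 192 and 207 are printed.

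ConA raised all 5 subunit mRNAs in both genotypes, though the call of Rel in WT was lost with the WT saline pair averaged (adjusted p = 0.0716). Rel and Relb reached the level for a test only through the ConA livers. In WT livers 8 of the 10 genes were called, all higher, while 53.0% of 10768 tested genes were called, 22.0% of them higher and 31.0% lower. In KO livers 9 of the 10 were called, again all higher, against 64.6% of 10988 genes called, 33.9% higher and 30.7% lower. The median change of the 10 genes was 1.38 in WT and 1.92 in KO on the log2 scale, beside -0.07 and 0.07 over all tested genes. In whole liver, more or fewer cells of a type cannot be told apart from more or less RNA per cell.

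Relb and Nfkb2, the non-canonical pair, rose most among the subunits. Relb had 0.96, 0.96 and 0.65 TPM in WT saline and 14.72, 19.19, 19.97 and 19.77 TPM in WT ConA livers. In KO livers it had 1.09, 0.79 and 1.01 TPM under saline and 20.5, 21.2, 23.6 and 22.3 TPM after ConA. No ConA liver came near the saline range, and the log2 change was 3.38 ± 0.16 (SE) in WT (limma adjusted p = 6.52e-07) and 3.55 ± 0.14 in KO (adjusted p = 1.49e-08). As a ratio of mean TPM, Relb was 21.5-fold higher after ConA in WT and 22.7-fold higher in KO.

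Nfkb2 encodes p100, the precursor of p52, which also acts as an inhibitor of RelB before it is processed. Its level was 4.36, 3.74 and 3.12 TPM in WT saline and 37.8, 43.6, 46.2 and 37.9 TPM in WT ConA livers. In KO it was 5.87, 4.93 and 4.98 TPM under saline and 47.10, 49.42, 45.03 and 46.23 TPM after ConA. The groups were far apart in both genotypes, with a log2 change of 3.16 ± 0.15 (SE) in WT (limma adjusted p = 6.52e-07) and 2.94 ± 0.12 in KO (adjusted p = 1.79e-08). In the longest Nfkb2 transcript 81.5% of 50-base stretches occur in no other gene, and its exons overlap those of Psd and AC114539.1 on the opposite strand, so part of its value is uncertain.

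Rela, which carries a strong activation domain, and Nfkb1, the precursor of p50, rose less than the non-canonical pair. Rela had 83.2, 81.7, 83.1 and 92.5 TPM in WT ConA and 93.6, 95.1, 102 and 103 TPM in KO ConA livers. Its log2 change was 1.85 ± 0.11 (SE) in WT (limma adjusted p = 2.44e-06) and 2.04 ± 0.11 in KO (adjusted p = 9.64e-08), or 3.72-fold and 4.25-fold as a ratio of mean TPM. Every ConA liver lay above every saline liver by a wide margin.

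Nfkb1 had 7.33, 6.38 and 6.0 TPM in WT saline and 19.1, 22.0, 13.4 and 23.8 TPM in WT ConA livers. In KO it had 6.34, 6.31 and 6.08 TPM under saline and 31.8, 33.5, 25.8 and 28.8 TPM after ConA. The lowest value of each ConA group was that of replicate 3 and still lay well above the saline range. The log2 change was 1.42 ± 0.20 (SE) in WT (limma adjusted p = 2.94e-04) and 2.09 ± 0.14 in KO (adjusted p = 3.61e-07).

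Rel, the gene of c-Rel, a subunit best known from lymphocytes and myeloid cells, was the lowest of the 10 after ConA. It had 0.72, 0.91 and 0.99 TPM in WT saline and 2.30, 2.52, 0.90 and 3.01 TPM in WT ConA livers, so that replicate 3 fell within the saline range. In KO it had 0.63, 0.88 and 0.59 TPM under saline and 3.30, 3.51, 2.21 and 2.91 TPM after ConA, without overlap. The log2 change was 0.71 ± 0.24 (SE) in WT (limma adjusted p = 0.0315) and 1.22 ± 0.16 in KO (adjusted p = 7.38e-05). With the near-identical WT saline pair averaged, the WT change of 0.74 had an adjusted p of 0.0716 and was no longer called. The same held without any 1 of the WT saline livers (adjusted p = 0.0665 to 0.0980), and without WT ConA replicate 3 the change was 0.94 (adjusted p = 3.54e-04).

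**Figure D2:**
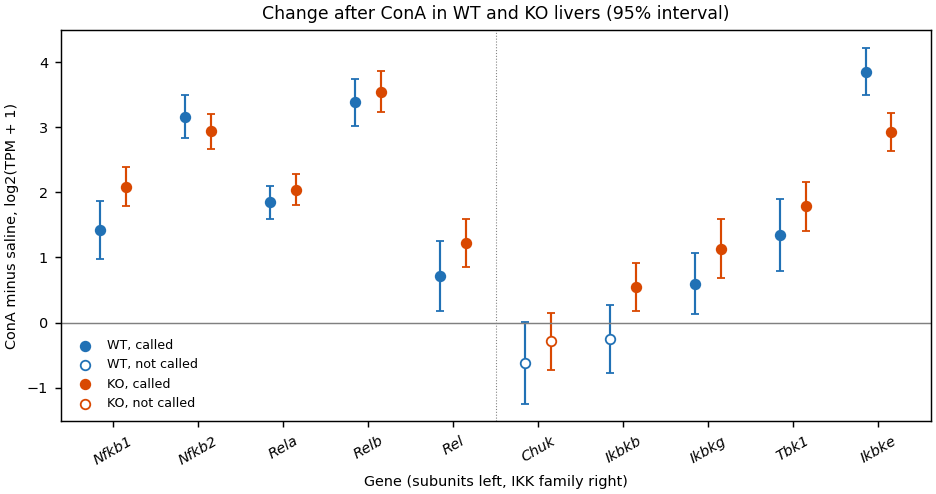
Difference between ConA and saline livers on the log2(TPM + 1) scale for WT (blue) and KO (orange), with 95% intervals from limma, filled where called and open where not. The changes of Relb, Nfkb2 and Ikbke are the largest in both genotypes, and the open points are Chuk in both and Ikbkb in WT.

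The canonical IKK complex did not rise as a unit. Ikbkg, which encodes the scaffold NEMO, rose in both genotypes, Ikbkb rose in KO, and Chuk was called in neither. Ikbkg had 11.0, 10.1 and 10.4 TPM in WT saline and 20.4, 17.0, 10.8 and 19.2 TPM in WT ConA livers, and replicate 3 again lay within the saline range. In KO it had 6.92, 5.90 and 7.04 TPM under saline and 20.8, 18.9, 11.4 and 13.3 TPM after ConA, without overlap. The log2 change was 0.60 ± 0.21 (SE) in WT (limma adjusted p = 0.0356) and 1.13 ± 0.20 in KO (adjusted p = 5.78e-04). With the WT saline pair averaged, the WT change was 0.58 with an adjusted p of 0.103. The WT call was also lost without any 1 library other than WT ConA replicate 3 (adjusted p = 0.0727 to 0.108), and without that replicate the change was 0.78 (adjusted p = 3.37e-04). Exons of Ikbkg and of G6pdx on the opposite strand share 418 bases, and whether the counting kept strand is not stated.

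Ikbkb, the main IkB kinase, had 14.6, 16.2 and 17.1 TPM in WT saline and 13.6, 18.4, 8.20 and 14.5 TPM in WT ConA livers, ranges that overlapped (log2 difference -0.26 ± 0.23, SE, limma adjusted p = 0.379). In KO it had 10.8, 12.8 and 11.2 TPM under saline and 19.6, 20.4, 13.0 and 17.1 TPM after ConA. There all ConA livers lay above the saline livers, with a log2 change of 0.54 ± 0.17 (SE, adjusted p = 0.0150), which was lost without KO saline replicate 1 (0.50, adjusted p = 0.0574).

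Chuk was the only member with lower mean levels after ConA in both genotypes. It had 39.7, 40.1, 19.7 and 52.2 TPM in WT ConA livers, all below the WT saline range, with a log2 difference of -0.62 ± 0.28 (SE, limma adjusted p = 0.0876). Without WT ConA replicate 3, its lowest library, the difference was -0.34 with an adjusted p of 0.0407, and without replicate 4, its highest, it was -0.80 with an adjusted p of 0.0321. In KO ConA livers Chuk had 42.5, 39.6, 23.3 and 43.3 TPM, which overlapped the KO saline livers (-0.29 ± 0.20, adjusted p = 0.226). After a correction of every library for its trend with GC content and transcript length, Chuk was called lower in WT (-0.58, adjusted p = 0.0060) and in KO (-0.62, adjusted p = 0.0018). The trend was taken against the mean of all 14 libraries, so it also removes differences between groups that follow GC content or length. For Chuk it was -0.18, -0.24 and -0.16 in KO saline livers and 0.33, 0.33, -0.26 and 0.17 in KO ConA livers.

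Both IKK-related kinases rose, and Ikbke rose the more. Ikbke had 5.10, 3.44 and 3.21 TPM in WT saline and 68.0, 62.4, 75.5 and 71.8 TPM in WT ConA livers. In KO it had 6.46, 5.71 and 6.68 TPM under saline and 51.0, 64.0, 51.7 and 51.2 TPM after ConA. The saline and ConA ranges lay far apart, with a log2 change of 3.86 ± 0.16 (SE) in WT (limma adjusted p = 3.71e-07) and 2.92 ± 0.13 in KO (adjusted p = 3.25e-08). The ratio of mean TPM was 17.7-fold in WT and 8.67-fold in KO.

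Tbk1 had 10.3, 9.27 and 10.2 TPM in WT saline and 32.0, 29.5, 15.6 and 33.8 TPM in WT ConA livers. In KO it had 8.94, 8.78 and 8.85 TPM under saline and 39.6, 35.3, 23.9 and 35.8 TPM after ConA. Replicate 3 was the lowest in both ConA groups and lay above all saline livers. The log2 change was 1.34 ± 0.25 (SE) in WT (limma adjusted p = 0.0015) and 1.79 ± 0.17 in KO (adjusted p = 5.66e-06).

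With WT saline replicates 2 and 3 averaged, 6 of the 10 genes were called in WT, the ones lost being Rel and Ikbkg, and 4620 of 10985 genes in all were called. Without WT ConA replicate 3, 9 were called, Chuk among them as lower, beside 7048 of 10692 genes in all. Leaving out replicate 3 of the KO ConA livers left 9 called in KO, beside 7814 of 10881 genes. The summed level of the 5 neutrophil markers moved with the treatment, from 8.52 to 9.67 TPM under saline up to 310 to 546 TPM after ConA in WT, and from 4.61 to 9.34 TPM up to 406 to 937 TPM in KO. The sum of the 5 Kupffer cell markers went from 57.5 to 97.0 and 24.6 to 54.3 TPM down to 2.87 to 19.9 and 3.83 to 16.5 TPM. The 5 of 6 T cell markers with values summed to 0.79 to 4.29 TPM in every liver. None of these markers was at 0 in all libraries. The neutrophil sum came mostly from S100a8 and S100a9. Ly6g did not rise, with 0.57, 4.85 and 5.04 TPM in WT saline and 1.64, 0.18, 0.49 and 0.88 TPM in WT ConA livers, and it overlapped in KO. Of the Kupffer cell markers, Timd4 and Adgre1 overlapped between saline and ConA livers in KO. The 4 markers of all leukocytes summed to 12.5 to 25.8 TPM under saline and 18.8 to 46.5 TPM after ConA, and the hepatocyte markers to 103068 TPM or more under saline and 77710 TPM or less after ConA. The part of these cell types in the changes of the 10 genes was not tested.

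The make-up of each set shifted after ConA. The 5 subunits summed to 34.9 ± 0.980 TPM (SD, n = 3) in WT saline and 36.3 ± 1.94 TPM (n = 3) in KO saline livers, and to 167 ± 8.43 TPM (n = 4) and 199.99 ± 3.34 TPM (n = 4) after ConA. Rela kept the largest share, 65.6% ± 2.77 in WT saline and 51.1% ± 2.04 in WT ConA livers. In WT livers Relb went from 2.45% ± 0.462 to 11.0% ± 1.19, and in KO livers from 2.64% ± 0.294 to 11.0% ± 0.691. The share of Nfkb2 was 10.7% ± 1.48 and 24.9% ± 2.89 in WT, and 14.5% ± 0.929 and 23.5% ± 0.842 in KO, under saline and after ConA, while Nfkb1 went from 18.8% ± 1.44 to 11.7% ± 2.40 in WT.

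The IKK family changed its leading gene. Chuk made up 58.0% ± 0.239 (SD, n = 3) of the summed TPM of the 5 IKK family genes in WT saline and 22.3% ± 5.12 (n = 4) in WT ConA livers. Ikbke made up 4.07% ± 1.02 and 43.0% ± 10.1 of it, with 58.2% in WT ConA replicate 3 and 37.3% to 39.1% in the other WT ConA livers. In KO livers Chuk went from 57.1% ± 2.09 to 23.1% ± 3.42 and Ikbke from 8.11% ± 0.976 to 34.8% ± 5.47. The sum itself was 96.0 ± 3.05 TPM in WT saline, 77.7 ± 3.25 TPM in KO saline, 165.6 ± 25.96 TPM in WT ConA and 158.9 ± 24.9 TPM in KO ConA livers.

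**Figure D3:**
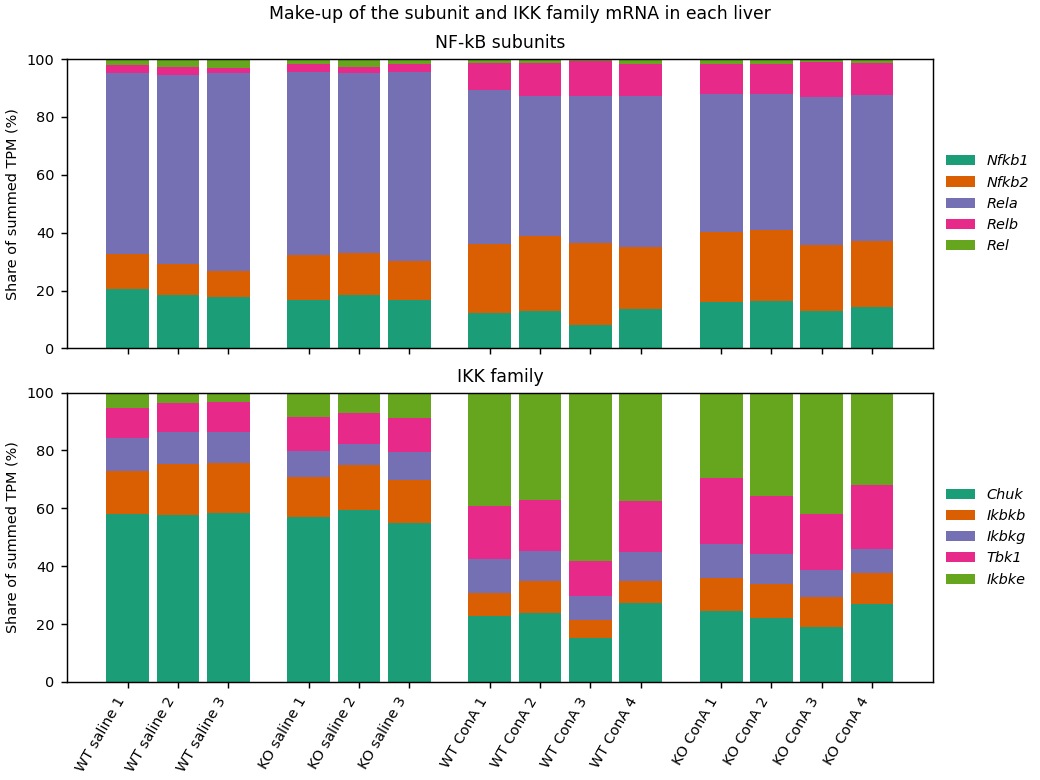
Share of each gene in the summed TPM of the 5 subunits (top) and of the 5 IKK family genes (bottom), with 1 stacked bar per liver. Chuk fills 55.1% or more of each saline bar and 27.3% or less of each ConA bar, and Ikbke 8.90% or less of each saline bar and 29.4% or more of each ConA bar.

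Within-library ratios were compared for 5 pairs in 4 comparisons, as the difference of log2(TPM + 1) of the genes of a pair, which removes most of the scaling of a library. Nfkb2 against Nfkb1 stood at -0.68 ± 0.07 (SD, n = 3) in WT saline and 1.07 ± 0.45 (n = 4) in WT ConA livers, so that Nfkb2 went from the lower to the higher of the precursors. In KO livers the ratio went from -0.21 ± 0.11 to 0.64 ± 0.11. In WT Ikbke against Tbk1 went from -1.17 ± 0.26 to 1.35 ± 0.57, and in KO from -0.44 ± 0.09 to 0.70 ± 0.33. WT ConA replicate 3 was the highest of its group in both ratios, at 1.71 and 2.20. The other WT ConA livers ran from 0.65 to 0.96 for Nfkb2 against Nfkb1 and from 1.06 to 1.07 for Ikbke against Tbk1. Relb against Rela went up by 1.531 in WT and by 1.504 in KO. Rel against Rela fell by 1.14 in WT and by 0.82 in KO. Rel and Relb were close to or below 1 TPM under saline, where the added 1 understates their rise. As a ratio of mean TPM, Rel rose 2.50-fold in WT and 4.26-fold in KO, and Rela 3.72-fold and 4.25-fold. In KO, the fall of Rel against Rela was thus not seen in ratios of mean TPM.

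On the log2(TPM + 1) scale, saline and ConA livers did not overlap in any of these 4 ratios in either genotype. Each exact two-sided permutation test gave p = 0.0571, the smallest that 4 against 3 mice can give. After adjustment over the 20 tests this was 0.127. Without the added 1, the share of Rel in the summed subunit TPM overlapped in KO (1.61% to 2.57% under saline, 1.12% to 1.73% after ConA). In WT that share did not overlap (2.01% to 2.92% against 0.55% to 1.70%). No within-library ratio was past the threshold. With these group sizes none could be after adjustment over the 20 tests, so this outcome says nothing about the ratios. Ikbkb against Chuk differed by 0.36 between WT ConA and WT saline livers, with overlap (exact p = 0.171), and by 0.83 in KO livers, without overlap (exact p = 0.0571). Between KO ConA and WT ConA livers, where the smallest p is 0.0286, the 5 ratios overlapped, and the lowest exact p was 0.0857, for Nfkb2 against Nfkb1, which stood 0.43 lower in KO. With 1 library left out, this difference ran from -0.57 to -0.21. That of Ikbke against Tbk1 was -0.65, and -0.78 to -0.37 with 1 library left out. Between the saline groups Nfkb2 against Nfkb1 and Ikbke against Tbk1 were higher in KO by 0.47 and 0.73, without overlap (exact p = 0.1, the smallest possible with 3 against 3).

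For 6 of the 10 genes replicate 3 was the lowest liver of both ConA groups, by amounts that varied with GC content but not in its order. The GC content of the transcripts ran from 41.3% for Chuk, 42.5% for Rel and 46.3% for Tbk1 to 60.7% for Rela and 61.1% for Relb. In WT ConA, replicate 3 differed from the mean of the other libraries by -1.11 on the log2 scale for Chuk, -0.98 for Tbk1, -0.92 for Rel, -0.83 for Ikbkb, -0.75 for Ikbkg and -0.65 for Nfkb1, and by -0.04 for Rela, 0.16 for Relb and 0.22 for Nfkb2. In KO ConA the differences were -0.82 for Chuk, -0.60 for Tbk1, -0.57 for Ikbkg, -0.51 for Ikbkb, -0.40 for Rel and -0.27 for Nfkb1, against 0.07 for Rela, 0.14 for Relb and -0.08 for Nfkb2. Over the 10 genes the differences had a correlation with GC content of r = 0.87 in WT and 0.86 in KO, and over 7156 genes of 0.60 and 0.31. With the log2 of transcript length it was -0.22 and -0.17 over the 10 genes, and -0.38 and -0.37 over the 7156 genes. The genes share 1 library in each case, so these are descriptions. The median difference over all these genes was -0.27 in WT and -0.24 in KO.

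**Figure D4:**
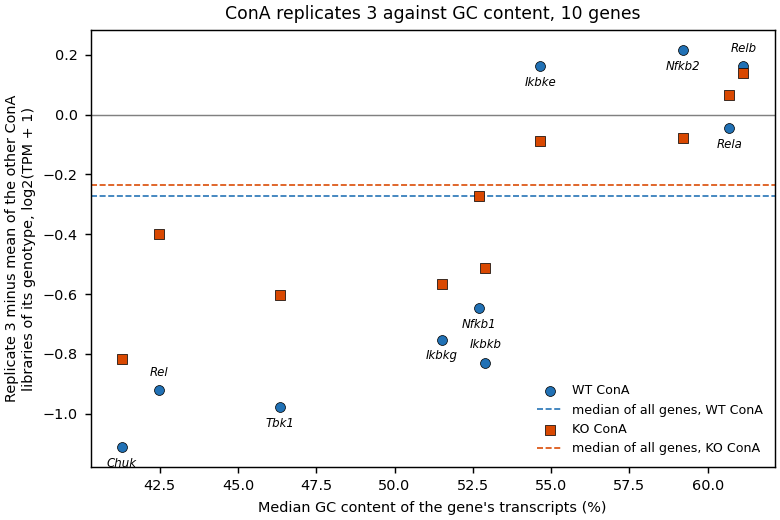
Difference between replicate 3 and the mean of the other ConA libraries of the same genotype, in log2(TPM + 1), against the median GC content of the gene's transcripts in percent, for the 10 genes (names beside the WT points). Chuk, Rel and Tbk1, lowest in GC, lie lowest in WT, and Relb, Rela, Nfkb2 and Ikbke lie within 0.22 of 0 in both genotypes.

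Among the saline livers, the IKK complex genes were lower and Ikbke higher in KO than in WT. None of the 3 tested subunits was called, though Nfkb2 came close to the threshold (limma adjusted p = 0.0548). Of the 8 members tested, 4 were called in KO saline against WT saline, 3 lower and 1 higher, while 19.2% of 10459 tested genes were called, 12.9% lower and 6.30% higher. Rel and Relb fell under the level needed for a test. Ikbkg was lower by 0.60 ± 0.09 on the log2 scale (SE, limma adjusted p = 0.0145), with 5.90 to 7.04 TPM in KO and 10.1 to 11.0 TPM in WT. Ikbkb was lower by 0.43 ± 0.10 (adjusted p = 0.0295) and Chuk by 0.32 ± 0.09 (adjusted p = 0.0439), both without overlap. After the GC and length correction neither was called, at -0.35 for Ikbkb (adjusted p = 0.0766) and -0.11 for Chuk (0.476). Ikbke was higher by 0.58 ± 0.15 (adjusted p = 0.0376), with 5.71 to 6.68 TPM in KO and 3.21 to 5.10 TPM in WT.

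These calls needed both libraries of the near-identical WT pair. With WT saline replicates 2 and 3 averaged, 0 of 9 tested members were called, with adjusted p values of 0.0787 for Ikbkg, 0.121 for Ikbkb, 0.137 for Ikbke and 0.142 for Chuk, and log2 differences of -0.62, -0.40, 0.50 and -0.33. Leaving out either of the pair also left 0 called, and without KO saline replicate 1 only Ikbkg was called. With the pair averaged, 49 of all 10675 genes tested were called, and 2789 had an unadjusted p under 0.05. The median of all genes was itself -0.10 in KO saline against WT saline and -0.05 in rescaled libraries, where Ikbkb (adjusted p = 0.0619) and Chuk (0.117) were not called and Nfkb2 was (0.45 higher, 0.0421). In the main fit Nfkb2 was higher in KO by 0.41, with a 95% interval of 0.12 to 0.69. Its levels were 4.93 to 5.87 TPM in KO and 3.12 to 4.36 TPM in WT saline livers. With 1 library left out its limma adjusted p ran from 0.0337 to 0.186. Rela had a log2 difference of 0.01 with a 95% interval of -0.18 to 0.21, and Nfkb1 one of -0.06 with an interval of -0.28 to 0.16. The 4 stellate cell markers had sums of 52.7 to 91.7 TPM in KO against 14.6 to 58.1 TPM in WT saline livers. The sum of the Kupffer cell markers was lower in KO saline livers (24.6 to 54.3 against 57.5 to 97.0 TPM for 5 genes). That of the sinusoidal endothelium markers was higher (19.97 to 33.63 against 11.7 to 19.5 TPM for 4 genes), and neither sum overlapped. Taken singly, the Kupffer cell markers Clec4f, Vsig4 and Timd4 overlapped, while Cd5l and Adgre1 did not. Of the endothelial markers, Stab2 and Lyve1 overlapped, while Clec4g and Pecam1 did not. The part of these cell types was not tested.

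After ConA, 0 of the 10 genes differed between KO and WT past the threshold (limma), while 0.428% of 10519 tested genes did, 0.342% higher and 0.0856% lower. An unadjusted p under 0.05 was reached by 2 of the 10 and by 1753 of all genes. Nfkb1 was higher in each KO ConA liver than in any WT ConA liver, with a log2 difference of 0.61 ± 0.18 (SE), a 95% interval of 0.21 to 1.02 and an adjusted p of 0.137. When all 14 libraries entered the fit, Nfkb1 was called (adjusted p = 0.0321). Ikbke was 0.35 ± 0.13 lower in KO, with an interval of -0.63 to -0.06 and an adjusted p of 0.209. KO ConA replicate 2, with 64.0 TPM, lay within the WT range of 62.4 to 75.5 TPM, and the other KO ConA livers lay below it.

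Of the 10 genes, 3 were higher in KO without overlap, Nfkb1, Rela and Relb, as were 6.37% of all tested genes, and 0 were lower without overlap, against 4.11% of all. For Rela the log2 difference was 0.20 with an interval of -0.04 to 0.45, and for Relb 0.25 with an interval of -0.07 to 0.56. Nfkb2 differed by 0.18, with an interval of -0.09 to 0.45. The other intervals were wider. That of Chuk ran from -0.62 to 0.64, that of Ikbkg from -0.58 to 0.46 and that of Tbk1 from -0.23 to 0.84, and in these genes replicate 3 was the lowest of each ConA group. Without replicate 3 of both groups the difference of Tbk1 was 0.21, of Ikbkb 0.29 and of Nfkb1 0.52 (adjusted p = 0.114), and 0 members were called.

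**Figure D5:**
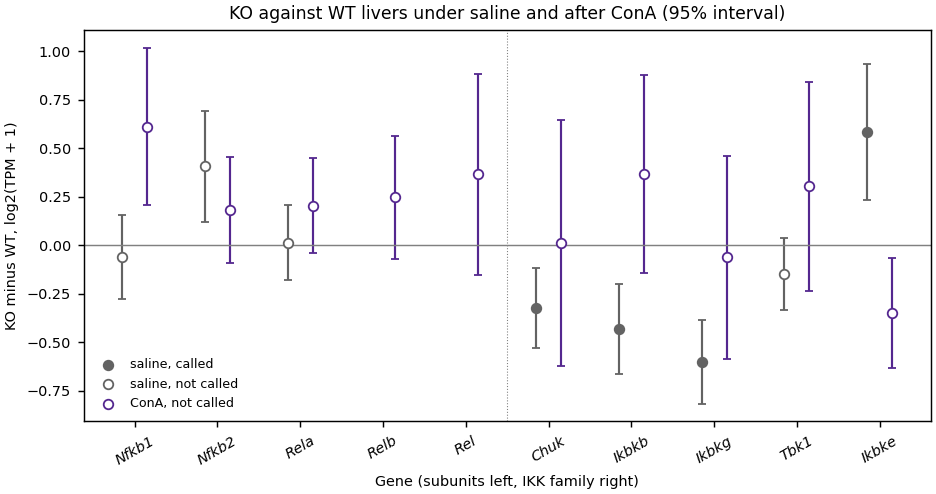
Difference between KO and WT livers on the log2(TPM + 1) scale under saline (grey) and after ConA (purple), with 95% intervals from limma, filled where called. Chuk, Ikbkb and Ikbkg lie below 0 and Ikbke above it under saline, no gene is called after ConA, and Rel and Relb have no saline point because they were not tested.

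The interaction of genotype and ConA, which tests whether a gene changed by a different amount in KO than in WT, was called for 1 of the 10 genes, Ikbke, and for 4.78% of 11327 genes. Ikbke rose by 3.86 in WT and by 2.92 in KO on the log2 scale, and the interaction was -0.93 ± 0.20 (SE), with a 95% interval of -1.36 to -0.50 and a limma adjusted p of 0.0280. With the WT saline pair averaged it was -0.85 with an adjusted p of 0.102. Without WT saline replicate 2 or 3 (adjusted p = 0.102 and 0.101), KO saline replicate 1 or 2 (0.0853 and 0.0551) or KO ConA replicate 4 (0.0586) it was also not called.

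The interaction of Nfkb1 was 0.67 ± 0.24 (limma adjusted p = 0.103) and that of Ikbkb 0.80 ± 0.30 (adjusted p = 0.118), both toward a larger rise in KO. Without replicate 3 of both ConA groups, 3 members were called: Ikbke (-0.87, adjusted p = 0.0195), Ikbkb (0.72, 0.0217) and Nfkb1 (0.58, 0.0267). In that fit 1591 of 11270 genes were called, against 541 of 11327 with all libraries. The median interaction over all genes was 0.14 and in rescaled libraries 0.03, so relative to all genes the value of Ikbke was larger in size and those of Nfkb1 and Ikbkb were smaller. In rescaled libraries Ikbke had -1.06 (adjusted p = 0.0379), Nfkb1 0.54 (0.0683) and Ikbkb 0.67 (0.0692).

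The rest of the pathway was read from 9 lists of 110 genes. A gene below 1 TPM under saline was tested only where ConA livers reached that level, so such genes could only come out higher. Between the saline groups 79 of the listed genes were tested. In WT 57 of 92 tested genes were called higher and 8 lower after ConA, and in KO 67 of 95 were called higher and 10 lower. Of all tested genes, 22.0% were called higher and 31.0% lower in WT, and 33.9% higher and 30.7% lower in KO. With the WT saline pair averaged 56 of 94 were called higher and 7 lower in WT, and without replicate 3 of both ConA groups 66 of 90 in WT and 73 of 94 in KO were called higher. The median log2 change over the lists was 1.02 in WT and 1.28 in KO.

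Among 12 ligands, 7 were tested in each genotype, 4 higher in both and 1 lower in WT and 2 lower in KO. Tnf, the cytokine that best marks canonical activation, had at most 0.05 TPM in any saline liver and 3.37 to 5.64 TPM after ConA in WT, with 2.30 to 5.03 TPM in KO. Ltb, which encodes lymphotoxin beta, a trigger of the non-canonical pathway, rose in WT from 0.23 to 0.62 TPM to 2.92 to 5.83 TPM. Il1b rose in KO from 0.37 to 0.58 TPM to 5.15 to 10.3 TPM. Il18, a cytokine of the IL-1 family, fell by 1.82 in WT and by 1.47 in KO, and Tnfsf12, the gene of TWEAK, fell in KO by 0.79.

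Among 15 receptor genes, 12 were tested in each genotype, and 9 rose and 1 fell in WT while 10 rose and 1 fell in KO. Cd14, the co-receptor of TLR4, rose in WT from 2.59 to 3.27 TPM up to 125 to 423 TPM, and in KO from 0.98 to 1.45 TPM up to 228 to 372 TPM. Tlr2, a receptor for bacterial lipoproteins, had at most 0.83 TPM under saline and 35.1 to 64.2 TPM after ConA. Il1rap, the accessory chain of the IL-1 receptor, fell by 1.69 in WT and by 1.53 in KO. Receptor levels thus moved in both directions, the majority upward.

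Of 21 adaptor and upstream kinase genes, 20 were tested, and 8 rose and 1 fell in WT, while 11 rose and 2 fell in KO. Myd88, the adaptor of Toll-like and IL-1 receptors, rose from 12.0 to 14.7 TPM to 47.9 to 62.0 TPM in WT and by a log2 change of 2.16 in KO. Map3k8, a kinase held inactive by p105, rose by 1.63 in WT and 2.11 in KO. Tradd, the adaptor of the TNF receptor, fell by 0.50 in WT and by 0.63 in KO. The WT call was lost with the saline pair averaged (adjusted p = 0.0817) and in rescaled libraries (0.109). It was also lost with the replicate block (0.0800) and without WT saline replicate 2 (0.0860) or 3 (0.0802). Sharpin, a subunit of the linear ubiquitin ligase, fell by 0.55 in KO.

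The controls of the non-canonical pathway rose as far as they were tested, 4 of 4 in WT and 5 of 5 in KO. Between the saline groups 3 of them were tested. Birc2 and Birc3 encode the cIAP ubiquitin ligases that keep the non-canonical kinase low. Birc2 rose by 1.826 in WT and 1.999 in KO, and Birc3 by 1.66 and 2.14. In WT, Birc3 ranged over 6.04 to 6.40 TPM under saline and over 13.6 to 32.6 TPM after ConA.

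All tested IkB genes rose as well, 6 of 6 in WT (5 of 6 with the saline pair averaged) and 5 of 5 in KO. Nfkbiz, the gene of the nuclear protein IkB-zeta, rose by 2.87 in WT and 3.73 in KO. Bcl3, a nuclear IkB that partners p50 and p52, rose from 14.2 to 17.8 TPM to 100.2 to 141.7 TPM in WT and by 2.48 in KO. Among the deubiquitinases and other brakes, 5 of 9 tested genes rose and 1 fell in WT, and 6 of 10 rose and 1 fell in KO. Tnfaip3, which encodes A20, had at most 0.58 TPM under saline and 12.7 to 28.9 TPM after ConA in WT, with 28.9 to 36.7 TPM in KO. Zc3h12a, the gene of the RNase Regnase-1, rose by 2.78 and 2.68, and Itch, a ubiquitin ligase that works with A20, fell by 0.83 in WT and by 0.54 in KO, where the call had an adjusted p of 0.0468 and was lost under 6 alternatives (adjusted p = 0.0504 to 0.124).

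Partners of TBK1 and IKK-epsilon were mixed, with 4 of 10 tested genes higher and 1 lower in WT and 6 of 10 higher and 1 lower in KO. Irf7, the interferon regulatory factor that these kinases phosphorylate, rose from 27.8 to 30.9 TPM to 141.0 to 167.5 TPM in WT and by 2.08 in KO. Irf3, their other main substrate, fell by 0.49 in WT and by 0.89 in KO. The WT call was lost in rescaled libraries (adjusted p = 0.1001), with the replicate block (0.0533) and without WT saline replicate 3 (0.0502). Sting1, the receptor of the DNA sensing pathway that recruits TBK1, rose by 1.26 in WT and 1.59 in KO.

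Among the cofactors and modifiers of the subunits, 3 of 8 tested genes were called lower in WT and 3 of 8 in KO. This was near the 31.0% and 30.7% of all tested genes called lower. Prkaca, the catalytic subunit of protein kinase A, fell by 0.89 and by 0.92, and Commd1, which promotes the degradation of RelA, fell by 0.78 and by 0.88. Nkrf, a repressor of NF-kB targets, was called higher in KO at 1.42 to 2.78 TPM against 1.08 to 1.35 TPM (adjusted p = 0.0380). After the GC and length correction it was not called (0.401). The call was also lost without any 1 of the KO saline livers (0.0751 to 0.130) and without KO ConA replicate 1, 2 or 4 (0.0593 to 0.0866). It was lost as well with no filter (0.0624) and with the replicate block (0.0640).

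The classic target genes rose as far as they were tested, 16 of 16 in WT and 18 of 18 in KO, with a median log2 change of 5.01 and 3.78 over lists of unequal size. Of the 20 target genes 13 were tested between the saline groups, so some entered these counts only through their level after ConA. The list was chosen with earlier results of these data known, and the counts are descriptions. Saa3, an acute-phase protein gene, rose in WT from 41.0 to 53.9 TPM up to 14932 to 30461 TPM, and in KO from 48.2 to 92.9 TPM up to 18685 to 21948 TPM. Lcn2, which encodes the iron-binding lipocalin 2, rose by 7.78 in WT and by 8.02 in KO. All these calls against WT saline among the named genes held with the saline pair averaged, other than that of Tradd.

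Between the genotypes, 11 of 79 tested pathway genes were called lower and 0 higher in KO against WT saline livers, beside the 12.9% and 6.30% of all tested genes, and with the WT saline pair averaged 0 of 81 were called. Among the 11 were Cd14 (0.98 to 1.45 against 2.59 to 3.27 TPM), Il1rap (57.2 to 71.9 against 90.7 to 103.6 TPM), the adaptor gene Bcl10, the kinase gene Ripk1, the brakes Tnip1 and Otulin, and Mavs, the adaptor of RNA sensing above TBK1. After ConA 1 of 95 was called, beside the 0.428% of all tested genes, the target gene Bcl2l1, which encodes the survival protein Bcl-xL, with 112 to 159 TPM in KO and 48.0 to 84.1 TPM in WT (log2 difference 1.06 ± 0.18, limma adjusted p = 0.0369). It was not called under 11 alternatives (adjusted p = 0.0530 to 0.111), among them rescaled libraries (0.0776) and the fit without replicate 3 of both groups (0.0892).

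The genes whose levels ran most like each member were found by the correlation of log2(TPM + 1) over the 14 libraries among 7224 genes. Since saline and ConA livers form separate clusters, these values mainly reflect that split and are given as descriptions. Rela and Relb were among the closest to each other (r = 0.997), Relb was also among the closest to Nfkb2 (0.995), and Icam1, an adhesion molecule gene, was among the closest to Nfkb2 (0.995) and Ikbke (0.992). Nfkb1 ran most like Sowahc, Adamts1 and Tpd52 (0.989 to 0.992), Tbk1 most like Acbd3, Tmem87b and Jmjd1c (0.989 to 0.991), and Ikbke most like Manf (0.995). Rel ran most like Gcc2, Ccng2 and Enpp4 (0.982 to 0.983). The closest to Chuk was Mxi1 (0.964), to Ikbkb Kcmf1 (0.962) and to Ikbkg Mphosph8 (0.980), all lower than for the other members.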

How the data were processed

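RNA of whole liver was sequenced on a BGISEQ-500 as single reads of 50 bases, with 1 library per mouse. The values deposited by the authors are TPM per gene. The study's methods name STAR and HTSeq, while the submitters' processing notes name Bowtie2, RSEM 1.3.1 and GRCm38.p6. How TPM were made from them, the annotation and the strand setting are not given in the sources used here. TPM keep no read depth, so no counting error can be given.

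TPM were tested as log2(TPM + 1) with limma 3.58.1 (R 4.3.3, empirical Bayes with trend) between the libraries of the groups compared, and the interaction over all 14. A gene was tested where the number of libraries with 1 TPM or more was no less than the size of the smaller group, and p-values were adjusted (Benjamini-Hochberg) over all genes tested. Ratios were compared by exact two-sided permutation tests (SciPy 1.17.1, Python 3.11.15, pandas 2.3.3), and plots were drawn with matplotlib 3.10.9. GC content and length of transcripts were taken from GENCODE vM21 (16958 genes matched, 96.0%), and promoters from RefSeq. The procedure was tested on simulated data.

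The members and lists were chosen with earlier results of these data known. In each list and comparison, the named genes were up to 2 called genes with the largest rise and 2 with the largest fall among those whose groups did not overlap, and for likeness the 3 genes with the highest r among those with a mean of 5 TPM or more. Rescaled libraries are TPM divided by a size factor per library. The GC and length correction and the fit without both ConA libraries numbered 3 were added after seeing the data. The other alternatives were another pseudocount (0.1), a filter at 5 TPM, no filter, all 14 libraries in each fit, a robust fit, the replicate number as a block, an average of WT saline replicates 2 and 3, and leaving out each library. The result of 1 gene of the cofactor list is not reported here.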

Additional observations from a re-analysis of the deposited data

Results flagged for a closer look

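In groups of 4 livers, 1 liver lay far from the other 3 for 3 of the 20 member and group combinations, where chance gives about 1 in 20. Rela had 92.52 TPM in WT ConA replicate 4, above the others of its group. Relb had 14.72 TPM in WT ConA replicate 1, below the others. Ikbke had 63.98 TPM in KO ConA replicate 2, above the other KO ConA livers and within the WT ConA range.

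The change of Ikbke after ConA differed between the genotypes, with a change in KO minus that in WT of -0.93 on the log2 scale (limma interaction, adjusted p = 0.0280), lower in KO. It was -0.85 with an adjusted p of 0.102 when WT saline replicates 2 and 3 were averaged. The cause was not tested.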

How the results depend on the processing

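The number of members called in KO saline against WT saline was 4, and it was 1 with no filter, 0 with all 14 libraries in the fit, 0 with the WT saline pair averaged, 2 after the GC and length correction, and 0 to 4 when 1 library was left out. In KO ConA against WT ConA it was 0, and 1 with all 14 libraries in the fit. For the interaction it was 1, then 0 with the pair averaged, 3 without both ConA libraries numbered 3, and 0 to 1 when 1 library was left out. After ConA, 6 to 9 members were called in WT and 8 to 9 in KO when 1 library was left out. The cause of these shifts was not tested.

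Small differences changed sign. In KO saline against WT saline, Nfkb1 ranged from -0.115 to 0.011 when 1 library was left out and was 0.045 after the GC and length correction, Rela ranged from -0.016 to 0.070 and was -0.13 after the correction, and Tbk1 was 0.025 after it. In KO ConA against WT ConA, Chuk ranged from -0.267 to 0.214 and was -0.065 in rescaled libraries, -0.154 after the correction and -0.063 without both libraries numbered 3, and Ikbkg ranged from -0.251 to 0.079. The interaction of Chuk was -0.048 after the correction. With 1 library left out, Relb against Rela ranged from -0.023 to 0.120 between the saline groups and from -0.046 to 0.093 between the ConA groups, and Rel against Rela from -0.059 to 0.277 between the ConA groups.

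Over all genes, KO saline against WT saline gave 2009 calls, and 958 with no filter, 332 with all 14 libraries, 49 with the pair averaged and 1084 after the correction. KO ConA against WT ConA gave 45, and 3 with no filter, 25 in rescaled libraries, 640 with all 14 libraries, 140 with the replicate block and 216 after the correction. The interaction gave 541, and 345 with no filter, 358 with the block, 28 with the pair averaged, 945 after the correction and 1591 without both libraries numbered 3. The split of higher and lower calls was 659 and 1350 in KO saline against WT saline, against 744 and 771 in rescaled libraries. Replicate numbers did not pair the livers throughout, as the correlations of deviations between livers of the same number ran from -0.25 to 0.43. The highest, 0.43, was that of the WT and KO ConA livers numbered 3. Between WT and KO saline livers, those numbered 1 had 0.30 and those numbered 2 had 0.23. What the numbers stand for is not stated. With the replicate block 7, 9, 4, 0 and 1 members were called in WT and KO after ConA, between the saline groups, between the ConA groups and for the interaction.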
